A study of Mus musculus with 4 samples.

Results

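The genes described here mark conventional dendritic cells and their mature, migratory state. The 10 genes were chosen by symbol from the deposited FPKM table, which holds 23745 gene rows, and each matched 1 row. Xcr1, Clec9a, Batf3, Irf8 and Itgae belong to the type 1 conventional lineage (cDC1), Flt3 and Zbtb46 to conventional dendritic cells in general, and Ccr7, Fscn1 and Il12b to mature dendritic cells. The libraries came from whole tumours of CT26, a colon carcinoma line, on the BALB/c background. 1 library came from untreated tumours of IL-34 deficient CT26 cells and 1 from such tumours treated with an αPD-1 antibody (anti-PD-1), which blocks an inhibitory receptor of T cells. The other 2 libraries, untreated and anti-PD-1 treated, came from tumours of CT26 cells with IL-34 overexpression. IL-34 binds the CSF-1 receptor, on which macrophages depend. Every line had an altered Il34 gene or level, so a difference between the lines cannot be assigned to loss or to overexpression of IL-34. Nor can either be told apart from other differences between the lines. The labels give neither the number of clones or animals behind a library nor the ages or the times of treatment. The study asked how tumours with and without IL-34 responded to PD-1 blockade.

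Conventional dendritic cells take up antigen in tissues and present it to T cells in lymph nodes. The cDC1 subset depends on the transcription factors BATF3 and IRF8 and is known for cross-presenting antigens of dead tumour cells to CD8 T cells, while the cDC2 subset mainly presents to CD4 T cells. On maturation, the cells express the chemokine receptor CCR7, which guides them to lymph nodes, reorganise their cytoskeleton with fascin, and can make IL-12, which drives interferon-γ production by T cells and natural killer cells.

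Each group had 1 library, so no value has a replicate check and no difference was tested. The number of fragments behind a value is unknown, and the depth of the libraries is known only relative to each other, at 92.3%, 94.9% and 89.6% of the untreated deficient library in the treated deficient, untreated overexpressing and treated overexpressing libraries. FPKM is a fragment count scaled to transcript length and to the mapped fragments of the library. Il34 itself, at 3.52 FPKM without and 3.02 FPKM with treatment in deficient tumours, reached 104 FPKM in both overexpressing ones, as labelled. The treated deficient library stood apart from the rest. Across 11813 genes, its log2 (FPKM + 1) values correlated with those of the other libraries at r of 0.975 to 0.982, against 0.994 to 0.996 among the other 3, where genes are not independent replicates. It also held the most RNA of epidermis and skeletal muscle. The 8 epidermis markers summed to 106 FPKM there and to 1.15 to 4.31 FPKM elsewhere, and the 8 skeletal muscle markers to 390.2 FPKM there and to 122 FPKM in the untreated deficient, 93.5 in the untreated overexpressing and 12.9 in the treated overexpressing library. Within the overexpressing line, 7 of the 8 muscle markers were lower with anti-PD-1 by a log2 of at least 1, against 0.279% of genes. Muscle RNA thus differed in that comparison too. The part of these tissues in the results below was not tested. The comparisons of the overexpressing line with itself and of the untreated lines with each other do not use the treated deficient library.

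The cDC1 genes had their highest values in the treated deficient tumour, and 3 of them, Xcr1, Clec9a and Batf3, were there at least 1.67 times the value of any other library. A value at least 1.5 times that of each other library was found there for 7.05% of genes. Xcr1, the receptor for the chemokine XCL1 and the most specific surface marker of cDC1 (mm10, as all coordinates here, chromosome 9, 123852315 to 123862029, minus strand), was at 0.801 FPKM in the untreated deficient library, 1.78 in the treated deficient library, 0.817 in the untreated overexpressing library and 0.793 in the treated overexpressing library. The 3 lower values lay within 1.03-fold of each other, and the treated deficient value was 2.18 times the next. Clec9a, a lectin that recognises actin exposed on dead cells (chromosome 6, 129408862 to 129424764, plus strand), was at 0.771, 1.39, 0.643 and 0.660 FPKM in the same order of libraries. It was again highest in the treated deficient tumour, 1.8 times the untreated deficient value.

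Batf3, the transcription factor that cDC1 need to develop (chromosome 1, 191098414 to 191108943, plus strand), was at 1.70 FPKM in the untreated deficient, 2.90 in the treated deficient, 1.72 in the untreated overexpressing and 1.74 in the treated overexpressing library. The 3 lower libraries lay within 1.02-fold of each other. Irf8, the partner factor of BATF3 (chromosome 8, 120736376 to 120756692, plus strand), was far more abundant, at 34.8, 48.2, 34.8 and 38.3 FPKM. Its level was 16.6 to 22.0 times that of Batf3 in the 4 libraries, and macrophages, B cells and plasmacytoid dendritic cells are known to express it too. With anti-PD-1 it was 1.39-fold higher in the deficient and 1.1-fold higher in the overexpressing line. Itgae, the integrin chain CD103 that binds E-cadherin (chromosome 11, 73090595 to 73147449, plus strand), was at 0.712, 0.916, 0.724 and 0.707 FPKM. It had the same order of libraries as Xcr1 and a smaller difference, 1.29-fold with anti-PD-1 in the deficient line. Resident CD8 T cells also carry CD103, and the minus-strand gene Gsg2 (73135484 to 73138294), at 4.31 to 5.30 FPKM, lies within Itgae. No source used here says whether the authors' counting used strand, and the Itgae value is uncertain for that reason.

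**Figure D1:**
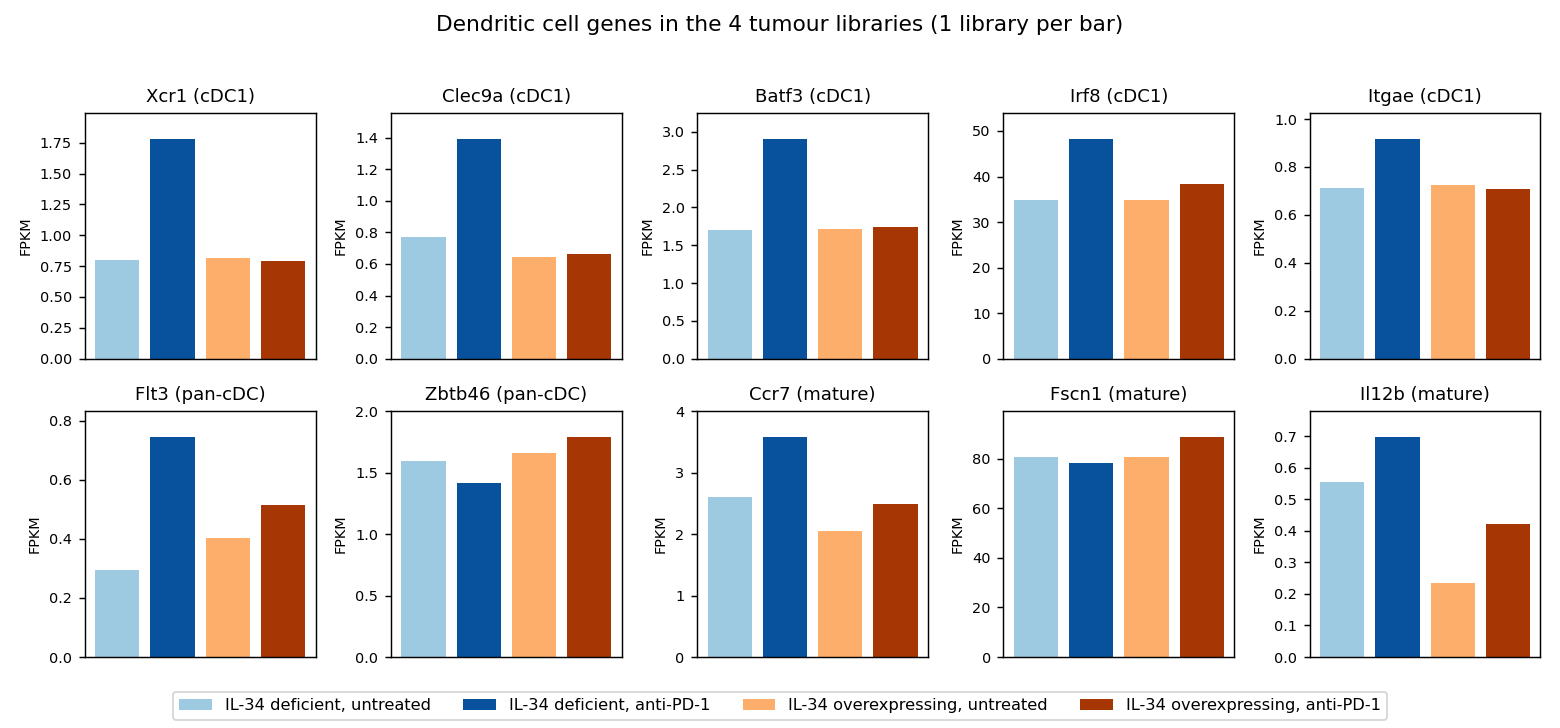
FPKM of the 10 dendritic cell genes in the 4 libraries, 1 library per bar and 1 panel per gene, each with its own axis from 0. Xcr1 stands at 1.78 FPKM in the treated deficient library and at 0.793 to 0.817 in the other 3, while Zbtb46 is lowest there, as is Fscn1 on the FPKM scale shown but not after rescaling to TPM or median scaling.

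The windows around the annotated start sites of Xcr1, Clec9a and Batf3 are shown because these genes had the 3 largest cDC1 differences. They span 250 bases before to 50 after the start, from RefSeq on GRCm38.p6, the build also called mm10, and read 5′ to 3′ on the gene's strand at chr9:123861980-123862279 (minus), chr6:129408612-129408911 (plus) and chr1:191098164-191098463 (plus). Capitals mark GAGGAA, a core of sites of the myeloid factor PU.1, on either strand.
Xcr1: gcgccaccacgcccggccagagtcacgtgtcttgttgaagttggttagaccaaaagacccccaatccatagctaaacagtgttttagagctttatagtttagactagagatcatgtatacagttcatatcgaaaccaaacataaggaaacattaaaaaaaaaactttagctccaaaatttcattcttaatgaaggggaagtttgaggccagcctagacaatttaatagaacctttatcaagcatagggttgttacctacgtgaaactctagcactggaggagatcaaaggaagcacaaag
Clec9a: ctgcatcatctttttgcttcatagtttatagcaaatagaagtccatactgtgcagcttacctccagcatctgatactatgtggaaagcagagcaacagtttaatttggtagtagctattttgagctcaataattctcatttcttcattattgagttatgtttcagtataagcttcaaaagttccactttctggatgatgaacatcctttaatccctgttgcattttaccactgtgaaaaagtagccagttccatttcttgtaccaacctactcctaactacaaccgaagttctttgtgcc
Batf3: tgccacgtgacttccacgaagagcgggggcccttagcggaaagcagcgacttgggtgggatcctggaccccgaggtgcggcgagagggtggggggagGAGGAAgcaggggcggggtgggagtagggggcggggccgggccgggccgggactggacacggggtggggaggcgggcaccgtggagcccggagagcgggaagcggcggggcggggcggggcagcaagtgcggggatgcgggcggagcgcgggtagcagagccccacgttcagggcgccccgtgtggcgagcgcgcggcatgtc
The Batf3 window holds 1 GAGGAA, 153 bases before the start, and is 75.7% G and C, against 40.0% in the Xcr1 and 37.0% in the Clec9a window, which hold no match. Of the 10 genes, 8 had a window in the table, and 2 of them (Batf3 and Il12b) hold GAGGAA, as do 28.3% of all 32817 windows of the same length. The AP-1 type site TGANTCA occurs in 1 of the 8 (Zbtb46, whose window lies at another start than that of the deposited coordinates) and in 7.81% of all windows. An interferon-stimulated response element, searched as a pair of GAAA spaced by any 2 bases, occurs in 0 of the 8 and in 3.43% of all, and the ETS-IRF composite element, GGAA and GAAA spaced by 2 bases, in 0 of the 8 and in 2.72%. The motifs were searched on both strands, and GGAA is shared by the PU.1 and composite patterns.

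The 2 genes of conventional dendritic cells in general did not share a pattern. Flt3, the receptor for the growth factor FLT3L (chromosome 5, 147330742 to 147400489, minus strand), was at 0.294, 0.744, 0.404 and 0.516 FPKM in the untreated deficient, treated deficient, untreated overexpressing and treated overexpressing libraries. The untreated value of each line lay below its treated value, by 2.53-fold in the deficient and 1.28-fold in the overexpressing line. Zbtb46, a zinc finger factor of conventional dendritic cells (chromosome 2, 181390886 to 181459426, minus strand), was at 1.60, 1.42, 1.66 and 1.79 FPKM. It was lowest where Xcr1, Clec9a and Flt3 were highest, at 0.888 times the untreated deficient value. Endothelial cells also express Zbtb46. Of the 5 endothelial markers, 4 were lower in the treated than in the untreated deficient library. Of genes with a mean of 0.25 to 200 FPKM, 43.2% were higher there. The markers summed to 26.1 against 33.6 FPKM, and to 40.2 and 34.2 FPKM in the untreated and treated overexpressing libraries. Cdh5, the endothelial cadherin and the marker with the largest drop, was at 12.5, 7.63, 15.4 and 13.0 FPKM. Vwf went the other way, at 0.510 FPKM in the treated against 0.251 in the untreated deficient library. The part of endothelial RNA in the Zbtb46 values was not tested.

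The 3 mature genes did not all share a pattern. Ccr7 (chromosome 11, 99144199 to 99155077, minus strand) was at 2.61 FPKM in the untreated deficient, 3.57 in the treated deficient, 2.05 in the untreated overexpressing and 2.49 in the treated overexpressing library. It was higher with anti-PD-1 in both lines, 1.37-fold and 1.21-fold, and lower in the overexpressing than in the deficient line, with or without treatment. Il12b, the p40 chain shared by IL-12 and IL-23 (chromosome 11, 44400063 to 44414017, plus strand), followed the same order of libraries, at 0.556, 0.696, 0.234 and 0.420 FPKM. Its largest difference was between the untreated lines, 2.38-fold lower in the overexpressing than in the deficient line. With anti-PD-1 it was 1.8-fold higher in the overexpressing and 1.25-fold higher in the deficient line. Fscn1, the actin-bundling protein fascin (chromosome 5, 142960355 to 142973189, plus strand), was at 80.5, 78.1, 80.7 and 88.6 FPKM. Its level was 21.9 to 39.3 times that of Ccr7, and many tumour and mesenchymal cells are known to express fascin. The share of the Fscn1 level that came from dendritic cells was not tested. Naive T cells also carry CCR7, and their part in the Ccr7 values was not tested.

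The start window of Il12b is shown because this gene differed most between the untreated lines. It lies at chr11:44399813-44400112 (plus) on GRCm38.p6, from RefSeq, and capitals mark GAGGAA on either strand, 219 and 143 bases before the start.
Il12b: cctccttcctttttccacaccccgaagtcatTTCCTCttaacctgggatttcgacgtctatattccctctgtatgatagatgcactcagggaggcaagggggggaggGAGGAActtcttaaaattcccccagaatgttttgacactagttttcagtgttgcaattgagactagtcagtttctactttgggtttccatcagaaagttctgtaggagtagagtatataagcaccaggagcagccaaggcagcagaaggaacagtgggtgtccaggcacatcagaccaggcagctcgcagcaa

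Of the 10 genes, 8 had their highest value in the treated deficient library, where 32.6% of 12672 genes with a mean of 0.25 to 200 FPKM, the range that spans the 10 genes, had theirs. The other two, Zbtb46 and Fscn1, were highest in the treated overexpressing library, the place of 19.6% of those genes, and none of the 10 in the untreated deficient or untreated overexpressing library, the place of 28.7% and 19.1%. The lowest values of Batf3, Irf8 and Flt3 were in the untreated deficient library (15.1% of genes), those of Zbtb46 and, as deposited but not after rescaling to TPM or median scaling, Fscn1 in the treated deficient library (42.7%), those of Clec9a, Ccr7 and Il12b in the untreated overexpressing library (20.6%) and those of Xcr1 and Itgae in the treated overexpressing library (21.6%), or, after rescaling to TPM or median scaling, in the untreated deficient library. The counts of highest values were the same after rescaling to TPM and after setting the median ratio of expressed genes to 1. In the treated against the untreated deficient library, 8 of the 10 had a ratio above 1, against 43.2% of genes, and 4 (Xcr1, Clec9a, Batf3 and Flt3) a ratio of at least 1.5, against 10.5%. None was lower by 1.5-fold, against 3.32%. The median ratio of the 10 was 1.38. The shares are over genes of all levels in that range, and genes of low level had higher ratios in this comparison. The median ratio of all genes was 1.30 at a mean of 0.25 to 0.5 FPKM (Flt3, Il12b) and 1.20 at 0.5 to 1 (Clec9a, Itgae). It was 1.14 at 1 to 2 FPKM (Xcr1, Zbtb46), 0.992 at 2 to 5 (Batf3, Ccr7) and 0.944 at 5 to 50 (Irf8). Zbtb46 and Fscn1 lay below 1, Fscn1 at 0.970 as deposited but at 1.08 after rescaling to TPM and 1.02 after median scaling. Rescaling to TPM shifted the log2 ratios of this comparison by 0.15, and the other 9 genes kept their direction.

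In the overexpressing line, the ratios of treated to untreated were smaller than in the deficient line for the cDC1 genes, Flt3 and Ccr7. They were larger for Il12b, Fscn1 and Zbtb46. Of the 10 genes, 8 lay above 1, against 49.2% of genes, with a median ratio of 1.09. Il12b alone was higher by 1.5-fold, against 2.59% of genes, and none was lower by 1.5-fold, against 3.23%. Xcr1, Clec9a, Batf3 and Itgae lay between 0.971 and 1.03, with Xcr1 and Itgae below 1. Ccr7 at 1.21, Fscn1 at 1.1 and Irf8 at 1.1 were above 1.

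Without treatment, the lines were close for most of the genes, and 7 of the 10 had a ratio of overexpressing to deficient above 1, against 41.9% of genes. Ratios of the overexpressing to the deficient library lay between 1.0 and 1.04 for Xcr1, Batf3, Irf8, Itgae, Zbtb46 and Fscn1. Flt3 was at 1.37, Clec9a at 0.834, Ccr7 at 0.786 and Il12b at 0.420, the only one of the 10 beyond 1.5-fold in either direction, against 2.17% of genes higher and 2.61% lower by that size. Under anti-PD-1, 8 of the 10 were lower in the overexpressing than in the deficient library, and 54.6% of genes were higher. Xcr1, Clec9a, Batf3 and Il12b were lower by at least 1.5-fold, against 11% of genes, and by 2.24-fold for Xcr1, 2.11-fold for Clec9a, 1.67-fold for Batf3 and 1.65-fold for Il12b. Zbtb46 was 1.26-fold and Fscn1 1.13-fold higher, short of 1.5-fold, which 3.61% of genes reached. This comparison and that within the deficient line share the treated deficient library, so their values are not independent.

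**Figure D2:**
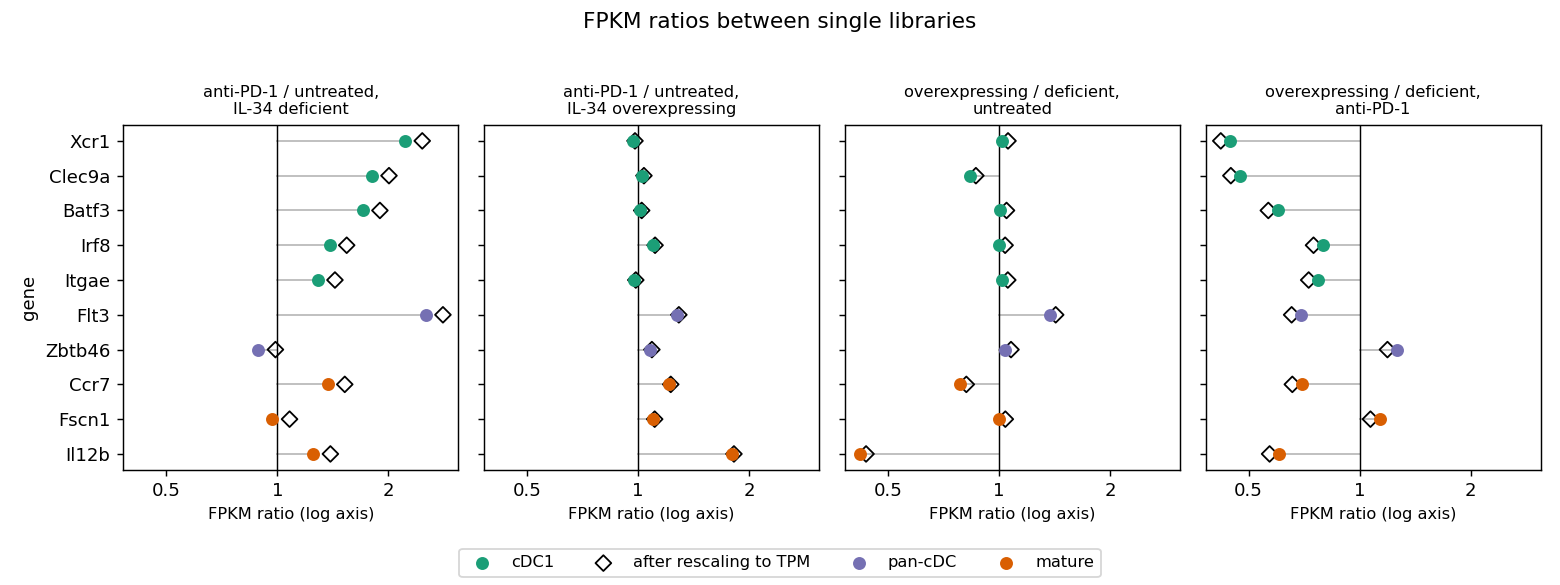
FPKM ratios of the 10 genes in 4 comparisons of single libraries, on a log axis. Filled points are the values as deposited, coloured by role, and open diamonds the values after rescaling to TPM; Fscn1 in the first panel is the point whose side of 1 depends on the scaling, at 0.970 and 1.08.

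On the log2 (FPKM + 1) scale, which understates ratios of genes near or below 1 FPKM, none of the 10 genes differed by a log2 of 1 in any comparison. For all genes at 1 FPKM or more in a compared library, the shares past that size were 1.49% higher and 0.341% lower with anti-PD-1 in the deficient line, 0.0524% and 0.279% in the overexpressing line, 0.122% and 0.0959% between the untreated lines, and 0.383% and 2.37% between the treated lines. Only 7 of the 10 genes reached 1 FPKM in any library, Xcr1 and Clec9a only in the treated deficient one, so no count over the genes that passed that minimum is given. The median log2 differences of the 10 were 0.39, 0.09, 0.0060 and −0.29 in these 4 comparisons, against −0.06, −0.0023, −0.03 and 0.04 for all genes.

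How far the response to anti-PD-1 in the overexpressing line lay from that in the deficient line was taken as a difference, overexpressing minus deficient. It was negative for the 5 cDC1 genes, Flt3 and Ccr7. On the log2 (FPKM + 1) scale it was −0.64 for Xcr1, −0.52 for Batf3, −0.42 for Clec9a, −0.32 for Irf8 and −0.32 for Flt3. It was positive for Fscn1 (0.18), Zbtb46 (0.17) and Il12b (0.08). None reached 1 in size, where 0.516% of genes lay above and 2.18% below. The median of the 10 was −0.25, against 0.06 for all genes. As a ratio of plain FPKM ratios, it was above 1 for 3 of the 10, against 56.8% of genes, at least 1.5 for none, against 4.51%, and below 1 by 1.5-fold or more for Xcr1, Clec9a, Batf3 and Flt3, against 11.4%.

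Genes of low level scattered widely between single libraries, and those of the treated deficient library were on balance higher. Among the 917 genes with a mean of 1 to 2 FPKM, the median ratio to the untreated deficient library was 1.14, and 7.20% had a ratio as large as that of Xcr1. For Batf3, 6.79% of the 1900 genes with a mean of 2 to 5 FPKM had as large a ratio, and for Irf8 5.50% of the 7104 genes of 5 to 50 FPKM. Clec9a and Itgae lay among 794 genes of 0.5 to 1 FPKM with a median ratio of 1.20, of which 20.4% and 45.2% had ratios as large as theirs. Flt3 and Il12b lay among 790 genes of 0.25 to 0.5 FPKM with a median ratio of 1.30, and 13.3% and 52.8% had ratios as large. In the overexpressing line, 9.97% of genes of its level had a ratio as large as that of Il12b and 9.33% one as large as that of Ccr7. Between the untreated lines, 5.57% and 5.95% of genes of their level had ratios as low as those of Il12b and Ccr7.

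**Figure D3:**
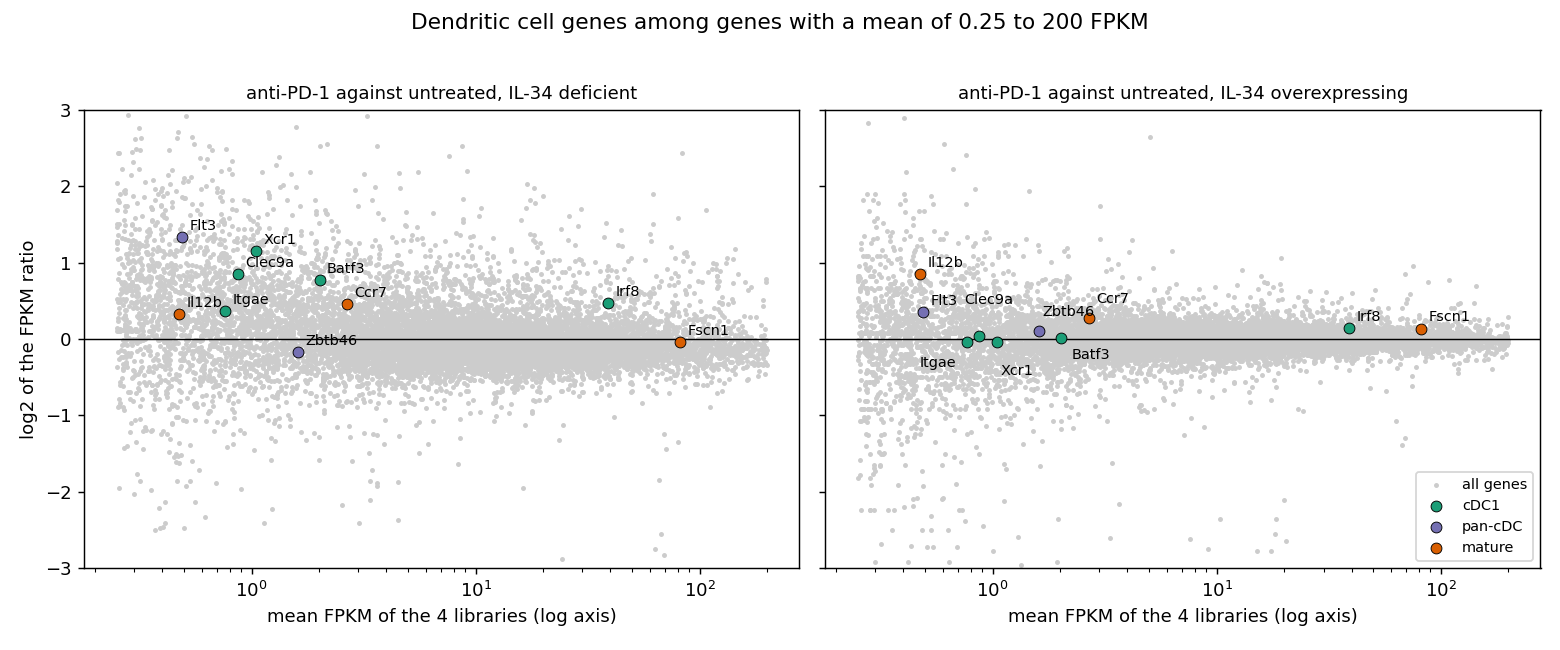
Log2 of the FPKM ratio of treated to untreated libraries against the mean FPKM of the 4 libraries (log axis), for genes with a mean of 0.25 to 200 FPKM that were detected in both libraries (grey, 12657 genes in the deficient and 12621 in the overexpressing line, of which 47 and 35 lie beyond 3 in size and are not drawn). The 10 dendritic cell genes are coloured by role; the grey cloud widens toward low levels, where Flt3, Il12b, Itgae, Clec9a and Xcr1 lie.

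In bulk tumour RNA, more cells of a type and more RNA per cell cannot be told apart. Ptprc, the pan-leukocyte gene CD45, was itself 1.68-fold higher with anti-PD-1 in the deficient line, at 40.4 against 24.0 FPKM, and at 22.7 and 24.4 FPKM in the overexpressing libraries. The level of each gene was therefore also set against Ptprc within its library, which does not depend on the scaling. Xcr1 was at 3.33% of the Ptprc level in the untreated deficient, 4.40% in the treated deficient, 3.60% in the untreated overexpressing and 3.25% in the treated overexpressing library. Clec9a was at 3.21%, 3.44%, 2.83% and 2.71%, and Batf3 at 7.09%, 7.19%, 7.57% and 7.15%. Per Ptprc, Xcr1 and Clec9a were still highest in the treated deficient library, and Batf3 lay within 1.07-fold in all 4. Irf8, Itgae, Ccr7 and Il12b, higher there by FPKM, were lower per Ptprc than in the untreated deficient library, at 0.824, 0.766, 0.814 and 0.744 times its value. Zbtb46 was at 0.528 and Fscn1 at 0.577 times, and Flt3 at 1.5 times. In the overexpressing line, Il12b was 1.68-fold higher per Ptprc with anti-PD-1, Flt3 1.19-fold and Ccr7 1.13-fold, and Xcr1 was at 0.905 times. Per Itgax, the integrin CD11c of dendritic cells and many macrophages, Xcr1, Clec9a, Batf3 and Flt3 were highest in the treated deficient library. The other 6 were lower there than in the untreated deficient library. Per Csf1r, the CSF-1 receptor gene of macrophages, Xcr1 was 1.48-fold, Clec9a 1.2-fold, Batf3 1.13-fold and Flt3 1.68-fold higher with anti-PD-1 in the deficient line. Irf8, Itgae, Zbtb46, Ccr7, Fscn1 and Il12b were lower, at 0.921, 0.856, 0.590, 0.910, 0.645 and 0.832 times the untreated value. Batf3, Irf8, Itgae, Flt3, Zbtb46, Ccr7 and Fscn1 were highest per Csf1r in the treated overexpressing library. Batf3 and Flt3 were there at 2.48% and 0.733%, against 2.47% and 0.632% in the treated deficient library. Xcr1 and Clec9a were highest per Csf1r in the treated deficient library and Il12b in the untreated deficient library. Per Cd3e, a T cell receptor subunit that was itself at 12.8, 28.5, 9.69 and 6.25 FPKM, the order was another. Xcr1 was at 6.25% of the Cd3e level in the untreated deficient, 6.24% in the treated deficient, 8.43% in the untreated overexpressing and 12.7% in the treated overexpressing library. Per Cd3e, Clec9a was at 0.811 and Batf3 at 0.766 times the untreated value in the treated deficient library, and all 10 genes were highest in the treated overexpressing library.

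**Figure D4:**
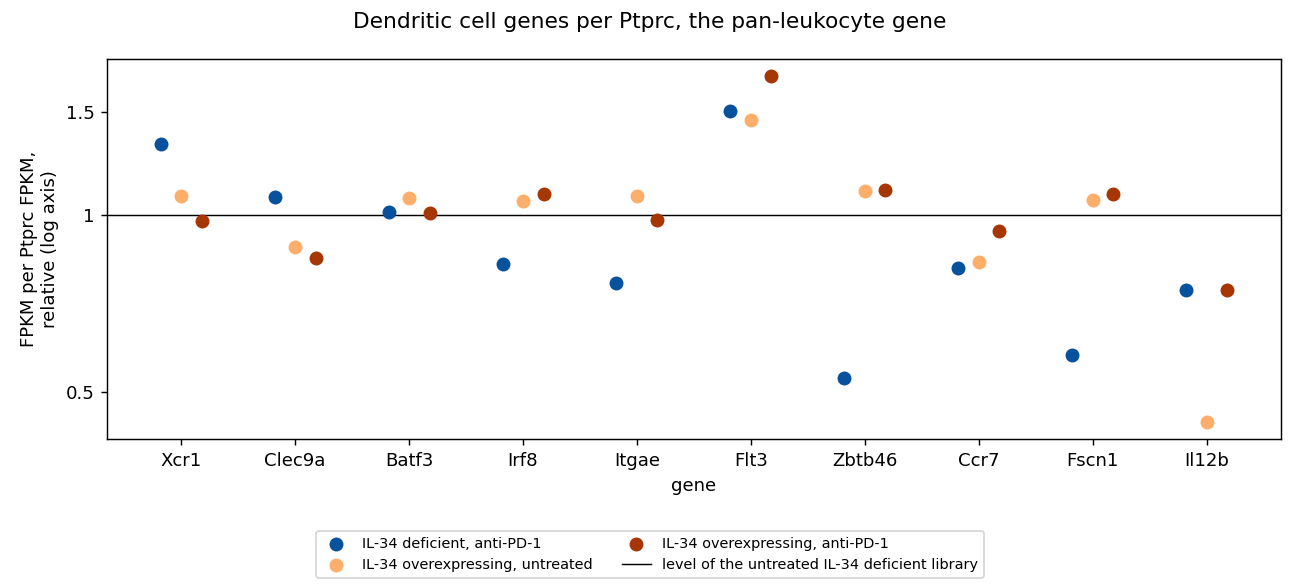
FPKM of each gene per FPKM of Ptprc in the same library, relative to the untreated deficient library (line at 1), on a log axis with 1 point per library. In the treated deficient library Xcr1 lies at 1.32 and Zbtb46 at 0.528; Il12b lies lowest, at 0.445, in the untreated overexpressing library.

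The partners of the receptors were read from the same table. Xcl1, the ligand of XCR1 made by natural killer and CD8 T cells, was at 14.9 FPKM in the untreated deficient, 36.1 in the treated deficient, 9.87 in the untreated overexpressing and 12.4 in the treated overexpressing library. The ligand and Xcr1 were thus both highest in the treated deficient tumour, where Xcl1 was 2.41-fold above the untreated value. Flt3l, the ligand of FLT3, was at 5.63, 7.05, 6.63 and 5.01 FPKM, 1.25-fold higher with anti-PD-1 in the deficient line and 1.32-fold lower in the overexpressing line. The CCR7 ligands were scarce. Ccl19 was at 0.0730, 0.556 and 0.231 FPKM and listed at 0 in the treated overexpressing library, and Ccl21a, whose reads cannot be told from those of its near-identical copies, was at most 0.727 FPKM, in the treated deficient library. Cdh1, the E-cadherin that CD103 binds, was at 0.484, 1.40, 0.586 and 0.547 FPKM, highest in the library with the most epidermal RNA.

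Il12a, the p35 chain that IL-12 needs beside p40, was at 0.0390 FPKM in the treated deficient library and listed at 0 in the other 3. Il23a, the chain that joins p40 in IL-23, was at 0.334, 0.108, 0.703 and 0.744 FPKM, lowest in the treated deficient tumour. The receptor chains Il12rb1 and Il12rb2 were highest there, at 10.6 and 2.68 FPKM against 5.66 and 1.14 in the untreated deficient library, and 4.81 to 5.18 and 1.14 to 1.20 in the overexpressing libraries. Ebi3 and Il27, the chains of the related cytokine IL-27, were at 16.0 against 7.23 and 3.27 against 0.826 FPKM with anti-PD-1 in the deficient line. Of the 10 genes of the IL-12 family and its signalling, 8 were highest in the treated deficient library, against 32.6% of genes. Here and for the lists below, the 32.6% is over genes with a mean of 0.25 to 200 FPKM. Some listed genes lie outside that range, among them Il12a, which is 1 of the 8. Higher by a log2 of 1 with anti-PD-1 were 3 in the deficient line (Ebi3, Il27 and Ifng), against 1.49% of genes, and 0 in the overexpressing line, against 0.0524%, and the list medians were 0.74 and 0.04.

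Further genes of the same cells were taken from lists. Of 11 other cDC1 genes, 9 were highest in the treated deficient library, against 32.6% of genes, and 0 were higher by a log2 of 1 in the deficient line, against 1.49%, with a median log2 difference of 0.22 in the deficient and 0.04 in the overexpressing line. Tlr3, a sensor of double-stranded RNA, was at 12.4, 18.4, 11.9 and 13.8 FPKM, and Wdfy4, which cDC1 need for cross-presentation, at 2.59, 3.47, 2.83 and 2.86 FPKM. Tlr3 and Wdfy4 were highest in the same tumour as Xcr1, 1.49-fold and 1.34-fold above its untreated counterpart. Cadm1, an adhesion molecule that is not restricted to these cells, was at 21.9 to 27.2 FPKM.

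Of 10 genes used to mark cDC2, 8 were highest in the treated deficient library, against 32.6% of genes, with a median of 0.52 in the deficient and 0.02 in the overexpressing line. Past a log2 of 1 in the deficient line were 2 of them, Clec10a and Cd7, against 1.49% of genes higher by that size, and Cd7 is also a T and natural killer cell gene. Clec10a was at 3.46, 8.51, 3.0 and 5.72 FPKM, and Mgl2, a related lectin, at 3.68, 3.29, 2.07 and 3.84 FPKM. Cd209a, a lectin of monocyte-derived and type 2 dendritic cells, was at 0.604, 0.783, 0.222 and 1.04 FPKM. In the overexpressing line, these 3 lectins were 1.91-fold, 1.86-fold and 4.69-fold higher with anti-PD-1. There, 0 of the 10 passed a log2 of 1, against 0.0524% of genes higher by that size.

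Of 22 other genes of mature dendritic cells, 12 were highest in the treated deficient library, against 32.6% of genes, and the median was 0.18 in the deficient and 0.04 in the overexpressing line. Past a log2 of 1 in the deficient line were 2, against 1.49% of genes higher by that size. These were Cd274 and Pdcd1lg2, which encode the PD-1 ligands. Cd40, the receptor for T cell help, was at 6.76, 11.1, 6.75 and 6.83 FPKM, so that its 3 lower values lay close together, as those of Xcr1 did. The chemokines Ccl22 and Ccl17, which attract CCR4-bearing T cells, were lowest in the untreated overexpressing library, as Il12b was. Ccl22 was at 3.38, 6.07, 2.11 and 4.62 FPKM and Ccl17 at 1.06, 1.69, 0.876 and 1.86 FPKM, and with anti-PD-1 they were 2.19-fold and 2.12-fold higher in the overexpressing line and 1.8-fold and 1.59-fold in the deficient line. The costimulatory gene Cd80 was at 3.70, 3.10, 3.70 and 4.30 FPKM, lowest in the treated deficient tumour, and the maturation marker Cd83 at 6.71, 6.63, 6.84 and 5.06 FPKM. Lamp3, a marker of mature dendritic cells in humans, was at 0.0187 FPKM in the untreated deficient library and listed at 0 in the rest.

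Of 14 transcription factors of dendritic cell development, 9 were highest in the treated deficient library, against 32.6% of genes, 0 were higher by a log2 of 1 in the deficient line, against 1.49%, and the medians were 0.29 and 0.03. Batf2, an interferon-induced relative of Batf3, was at 39.4, 67.7, 39.5 and 46.8 FPKM, and Id2, needed by cDC1, at 31.7, 44.7, 31.6 and 29.5 FPKM. Irf4, a factor of cDC2 and of activated lymphocytes that the cDC2 list also holds, was at 0.533, 1.60, 0.587 and 0.437 FPKM, and Nfil3 at 12.9, 9.75, 12.4 and 13.1 FPKM. Of 12 genes of cross-presentation and costimulation, 10 were highest in the treated deficient library, again against 32.6% of genes, with medians of 0.30 and −0.04. Past a log2 of 1 were 0 in either line, against 1.49% of genes higher by that size in the deficient and 0.0524% in the overexpressing line.

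Of 10 plasmacytoid dendritic cell genes, 9 were highest in the treated deficient library, against 32.6% of genes, with medians of 0.74 and 0.19. Past a log2 of 1 in that line were 3 (Siglech, Klk1 and Ly6d), against 1.49% of genes higher by that size, and Ly6d is also a keratinocyte gene. Siglech, the most specific of them, was at 0.675, 2.49, 0.653 and 0.948 FPKM.

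**Figure D5:**
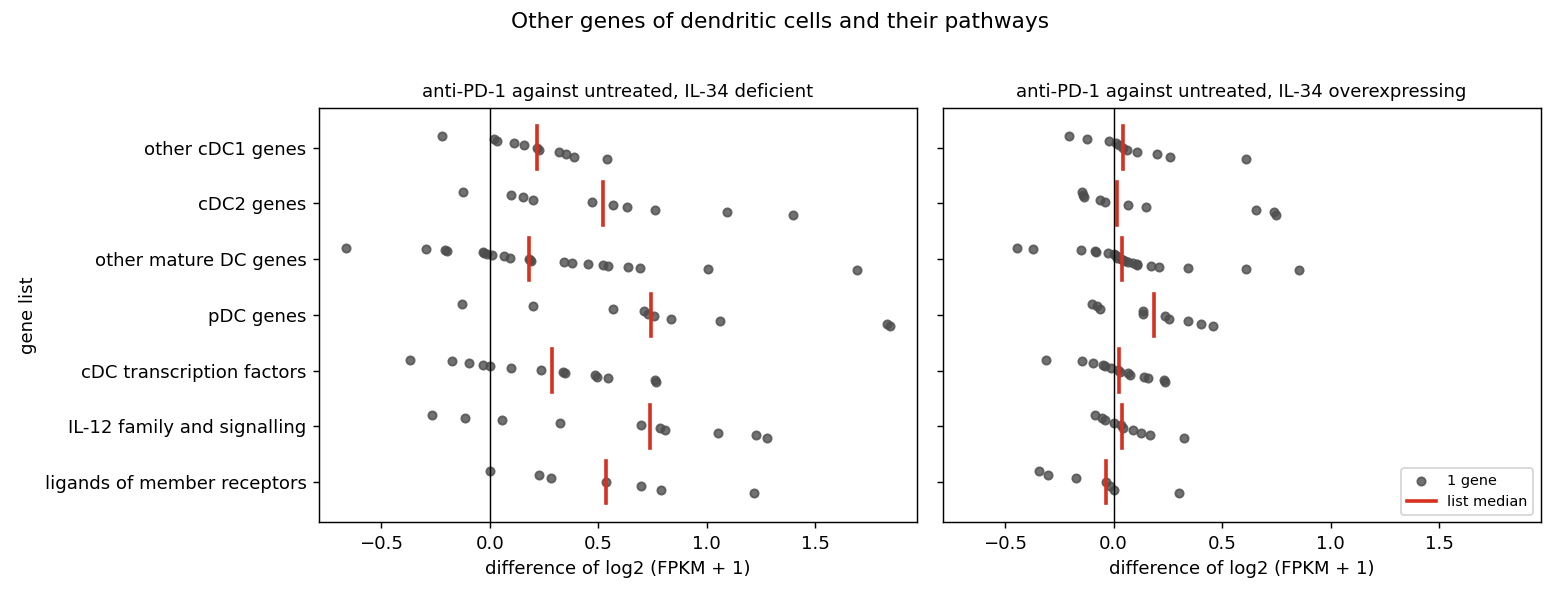
Differences of log2 (FPKM + 1) between treated and untreated libraries for 7 lists of other dendritic cell and pathway genes, 1 point per gene and a red line at the list median, in each line. In the deficient line the medians lie between 0.18 and 0.74, and in the overexpressing line between −0.04 and 0.19.

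Most markers of T cells, macrophages and natural killer cells were highest in the same library, where 32.6% of genes with a mean of 0.25 to 200 FPKM were. All 9 matched T cell markers were highest in the treated deficient tumour, with sums of 67.5, 153, 52.7 and 40.7 FPKM, and 5 were higher by a log2 of 1 than in the untreated deficient library, against 1.49% of genes. Of 10 macrophage markers, 9 were highest there, with sums of 2038, 3503, 2097 and 1852 FPKM, and of 5 natural killer markers 4, with sums of 10.7, 18.7, 11.5 and 12.2 FPKM. The 6 B cell markers stayed low, with sums of 2.38 to 5.40 FPKM. Markers of lymph node stroma summed to 0.0991, 1.30, 0.399 and 0.0780 FPKM, and Cr2, the follicular marker, was at most 0.0261 FPKM. The Langerhans cell markers Cd207 and Epcam reached at most 0.252 and 0.544 FPKM.  The part of T cells, macrophages and natural killer cells in the values of Batf3, Irf8, Itgae and Ccr7 was not tested.

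The genes most like each gene in pattern were taken as those with the smallest root mean square difference of centred log2 (FPKM + 1) over the 4 libraries, among 1526 or 1527 genes with a mean of at least 1 FPKM and a range of at least 0.5. For Xcr1 they were Fyb, Gm4759 and Cd40, at differences of 0.0093 to 0.013. For Batf3 they were Gpr171, Arhgef3 and Myo1f, for Irf8 Stxbp2, Dnajb11 and Csf2rb, and for Ccr7 Ifih1, Tnfsf14 and Gpsm3. With 4 libraries the likeness is loose, as 319 of 1526 genes lay within 0.1 of Xcr1, 306 of Batf3, 175 of 1527 of Irf8 and 144 of Ccr7. No gene lay within 0.1 of Zbtb46 or Fscn1, whose own ranges of 0.21 and 0.18 were below the minimum of the search.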

How the data were processed

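RNA-seq libraries of 4 tumour groups were measured, 1 per group. The authors deposited 1 table of FPKM values. Per the submitters' processing notes, the tools were Cufflinks 2.2.1, TopHat2 2.1.0 and CASAVA 1.8.2 on mm10; no source used here gives their order or settings. FPKM is scaled to mapped fragments, so a few abundant transcripts lower all other values, and the sums ran from 488881 to 543926. Relative depth was the most frequent ratio between libraries, within 0.01, among values below 0.1 FPKM; total depth is unknown, and no counting interval could be given.

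The highest row of a symbol was used, 774 symbols of short RNAs were left out, and 22509 remained. The table's starts match RefSeq's after adding 1 (11596 of 20872 rows, against 698 as written), and starts are printed so. Differences were taken on log2 (FPKM + 1) over the whole table and ratios on plain FPKM, with no test, since each group has 1 library. All 10 genes were named in full, as were genes that pair with them, those past the size rule and the 3 most alike in pattern. Of 170 genes in 22 lists, 4 were matched by RefSeq accession and 1 (Trac) was not matched. The list of naive T cell markers is not reported here. The genes and lists were chosen with earlier results of these data known. The ratio and count steps were tested on simulated data. Python 3.11.15, numpy 2.4.6, pandas 2.3.3 and matplotlib 3.10.9 were used.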

Additional observations from a re-analysis of the deposited data

Results flagged for a closer look

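With anti-PD-1, 4 of the 10 genes lay in opposite directions in the lines, each seen in 1 library per group and not tested. The difference of the responses, overexpressing minus deficient on the log2 (FPKM + 1) scale, was −0.64 for Xcr1 and −0.18 for Itgae, which were higher in the deficient and slightly lower in the overexpressing line. It was 0.17 for Zbtb46 and 0.18 for Fscn1, which were lower in the deficient (Fscn1 only as deposited, and higher after rescaling to TPM or median scaling) and higher in the overexpressing line.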

How the results depend on the processing

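No group had a replicate, so leaving out a replicate was not possible, and depth below 1 FPKM limits Xcr1, Clec9a, Itgae, Flt3 and Il12b most. No paired analysis was possible because each group has 1 library and the result comes from no test. Of the recomputed summary values, 101 stayed within 1.5 times of the reported value, 14 did not, and none reversed. Most of the 101 were counts of the 10 genes that were 0 as reported and stayed at 0, so the tally says little about stability. Summing the rows of a symbol could not change the values of the 10 genes, as each had 1 row. With a pseudocount of 0.1, Xcr1 was at a log2 difference of 1.06 with anti-PD-1 in the deficient line. It was at −1.07 between the treated lines and at −1.10 in the response difference. Xcr1 reached the minimum of 1 FPKM only in the treated deficient library, so no count past a log2 of 1 is read from it. Flt3, under that minimum in every library, was at 1.1 in the deficient line. With that pseudocount, the median between the treated lines was −0.48 instead of −0.29. With a pseudocount of 5 the medians were 0.13 and 0.029 for anti-PD-1 in the deficient and overexpressing lines, 0.0032 and −0.12 between the untreated and treated lines, and −0.086 for the response difference. After rescaling to TPM the medians were 0.051 between the untreated lines and −0.40 for the response difference, and median scaling gave 0.026 between the untreated lines. With a minimum of 5 FPKM only Irf8 and Fscn1 were left, with 1 highest in the treated deficient and 1 in the treated overexpressing library. These shifts follow from the size of the added constant and the scaling themselves. Counts over all genes past a log2 of 1 ran from 69 to 411 higher and 12 to 70 lower with anti-PD-1 in the deficient line (174 and 40 as reported), 1 to 32 and 13 to 56 in the overexpressing line (6 and 32), 8 to 24 and 0 to 26 between the untreated lines (14 and 11), 17 to 79 and 108 to 506 between the treated lines (45 and 278), and 20 to 127 and 90 to 536 for the response difference (61 and 257).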
